A study of Mus musculus with 2 samples.

Results

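The genes described here encode the proteins that load and present peptides on MHC class II in the mouse: the chains H2-Aa, H2-Ab1 and H2-Eb1, the invariant chain Cd74, the peptide exchange factor chains H2-DMa and H2-DMb1, and the regulator Ciita. These 7 genes were taken by name from 30649 gene names in an mRNA-seq table of brown adipose tissue (BAT). They were selected on their FPKM values, which were already known in these libraries, so the values below are a description and carry no test. Interscapular BAT came from mice of C57BL/6 background (C57BL/6J in the study's methods), either wild type (WT) or carrying a knockout (KO) of Taf7l, which encodes a paralog of the general transcription factor subunit TAF7. For each genotype, the RNA samples of 6 mice went into 1 pool and 1 polyA library, and the spread between mice is unknown. One label gives an age of 1 month for both pools, and another label gives 3 months for the KO pool. The deposited columns are named for 1 month. If the KO mice were older, age and genotype cannot be told apart.

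MHC class II molecules are pairs of an alpha and a beta chain that carry peptides from endosomes to the surface of dendritic cells, B cells and macrophages, where CD4 T cells read them. The invariant chain binds new pairs, blocks their groove and routes them to endosomes, where cathepsins degrade it and H2-DM exchanges its last fragment for a peptide. The regulator CIITA does not bind DNA by itself but joins the RFX, CREB and NF-Y factors that sit on the X and Y boxes of class II promoters. Adipose tissue holds resident macrophages and other leukocytes, and in whole BAT these transcripts may come from any of its cells.

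Values are FPKM, fragments per kilobase of transcript normalised to the mapped reads of a library, summed over the rows of a gene name. The scale is per length, so genes can be ranked within a library. A gene was compared between libraries if it stood at 1 FPKM or more in at least 1 of them, which 12171 names did, and differences are log2((KO + 0.1)/(WT + 0.1)). The depth was estimated from the table at 25931000 mapped reads in WT and 78495200 in KO, so a WT value rests on fewer reads. The fold of each member is given with its 95% exact binomial interval, computed on estimated reads and blind to any error but counting. Folds of rows and sums, and most list genes, are given without an interval. Taf7l had 0.0222 FPKM in WT and 0.00734 in KO, about 1 read in each library, and so does not check the genotype labels.

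The class II genes differed less between WT and KO than the 3-fold threshold of the study. Cd74 stood at 66.0 FPKM in WT and 134 in KO, and H2-DMa at 3.00 and 4.78 FPKM, while the alpha and beta chains H2-Aa and H2-Ab1 and the exchange factor chain H2-DMb1 lay within a narrow range of equality. Among the 6 members that reached 1 FPKM, 2 were at least 1.5-fold higher in KO and 0 were at least 1.5-fold lower, where 16.5% of all genes compared were that much higher and 12.7% that much lower. At 3-fold, 0 members were higher or lower, against 2.05% and 0.403% of all genes. The median log2 ratio of the 6 was 0.24, beside 0.010 for all genes compared, whose middle 50% lay between −0.35 and 0.40. Ciita, below 1 FPKM in both libraries, was not among the genes compared. In whole tissue, more cells of a type and more RNA per cell cannot be told apart.

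**Figure D1:**
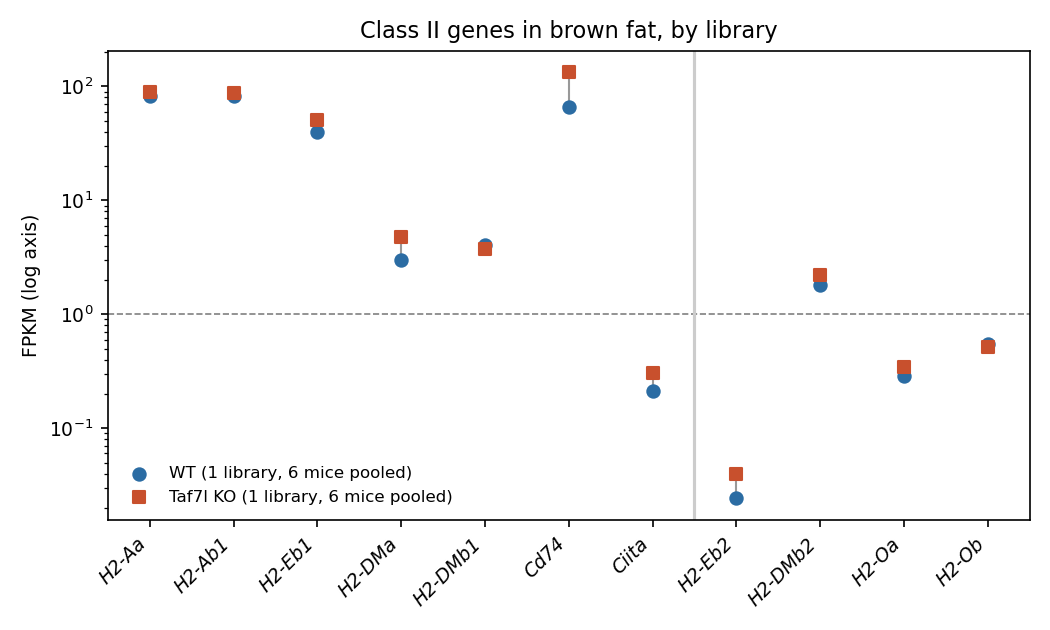
FPKM in the WT and Taf7l KO libraries (log axis) for the 7 members, left of the grey line, and for the other class II genes above 0. Each point is 1 pooled library, and the dashed line marks 1 FPKM. The points of H2-Aa and H2-Ab1 nearly coincide, those of Cd74 stand 2.03-fold apart, and Ciita lies below the line in both libraries.

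H2-Aa and H2-Ab1 encode the alpha and beta chain of the A molecule, the main class II molecule of C57BL/6 mice. H2-Aa, on chromosome 17 of GRCm38 from 34282744 to 34287823 on the minus strand, had 81.8 FPKM in WT and 89.6 in KO. The ratio was 1.10 (interval 1.03 to 1.17), from about 1327 and 4399 reads. H2-Ab1, on the same chromosome from 34257689 to 34269419 on the plus strand, stood at 82.4 FPKM in WT and 86.9 in KO, a ratio of 1.05 (interval 0.994 to 1.12). The partner chains thus had nearly equal levels in either library, with an H2-Aa to H2-Ab1 ratio of 0.992 in WT and 1.03 in KO. Ratios as high as theirs were found for 41.2% and 45.4% of all genes compared.

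H2-Eb1 encodes the beta chain of the E molecule. The gene, on chromosome 17 from 34305867 to 34316674, had 39.8 FPKM in WT and 51.0 in KO, 1.28-fold higher (interval 1.21 to 1.36). Its level relative to H2-Ab1 was 0.483 in WT and 0.586 in KO. Of all genes compared, 27.7% had a ratio as high. Its alpha partner, listed as H2-Ea and called H2-Ea-ps in the reference because C57BL/6 mice do not make the E alpha chain, was at 0 in both libraries. A floor of 3 reads would correspond to 0.138 FPKM in WT and 0.0457 in KO. The E beta transcript was thus measured without its alpha partner in both libraries.

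The table splits each chain gene into 2 transcript rows, and both rows of each gene had similar ratios. The H2-Aa rows went from 48.4 to 53.6 FPKM and from 33.3 to 36.0 FPKM. The H2-Ab1 rows went from 38.4 to 41.4 FPKM and from 44.0 to 45.5 FPKM. Those of H2-Eb1 went from 18.8 to 24.2 FPKM and from 21.0 to 26.7 FPKM. No chain owed its ratio to a single row, although rows of a gene share reads and are not independent.

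The promoter letters of the class II genes are shown because class II genes share the boxes through which CIITA acts. RefSeq promoter windows of GRCm38.p6, from 250 bases before to 50 after the start, were given for 8 of the 12 class II genes listed here, among them the members H2-Aa, H2-Eb1, H2-DMa and H2-DMb1. The letters TGATTGG, the core of the Y box bound by NF-Y, and GCAAC, from the X box bound by RFX, were searched on both strands. These letters were chosen with the sequences in view. The stretches lie at chr17:34287859-34287928 on the minus strand for H2-Aa, chr17:34305751-34305820 on the plus strand for H2-Eb1, chr17:34325518-34325587 on the plus strand for H2-Eb2, chr17:34238791-34238860 on the plus strand for H2-Ob and chr17:34153105-34153134 on the plus strand for H2-DMb1. They are written 5′ to 3′ on the strand of the gene, and capitals mark GCAAC and TGATTGG.
H2-Aa: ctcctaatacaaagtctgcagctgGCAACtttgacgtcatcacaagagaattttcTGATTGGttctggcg
H2-Eb1: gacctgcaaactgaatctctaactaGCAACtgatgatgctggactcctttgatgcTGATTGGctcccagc
H2-Eb2: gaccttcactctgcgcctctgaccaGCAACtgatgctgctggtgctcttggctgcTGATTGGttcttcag
H2-Ob: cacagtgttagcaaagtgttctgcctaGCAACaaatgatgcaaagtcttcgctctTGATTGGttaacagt
H2-DMb1: tgatgctaggctgattcactcagTGATTGG

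TGATTGG was found in 7 of the 8 genes, and in 7.82% of 32851 promoter windows of all genes. GCAAC, a shorter and more frequent word, was found in 6 of the 8 genes and in 35.2% of all windows. GCAAC followed by TGATTGG on the same strand, with 10 to 40 bases between them, was found in 5 of the 8 genes and in 95 windows of all genes, which is 0.289%. The spacing was 26 bases in H2-Aa and H2-Oa, 25 bases in H2-Eb1 and H2-Eb2 and 23 bases in H2-Ob. The windows of H2-DMa, which has 2 start sites, did not hold TGATTGG, and that of H2-DMb1 held TGATTGG without GCAAC. The H2-DMb1 stretch lies before the RefSeq start but after 34153072, where the gene begins in GENCODE. It is therefore inside the gene as annotated there, unlike the stretches of H2-Aa and H2-Eb1. The genes that shared the spaced pair differed widely in level, from 0.0242 FPKM for H2-Eb2 to 81.8 FPKM for H2-Aa in WT. H2-Ab1, Cd74 and Ciita are named without sequence.

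**Figure D2:**
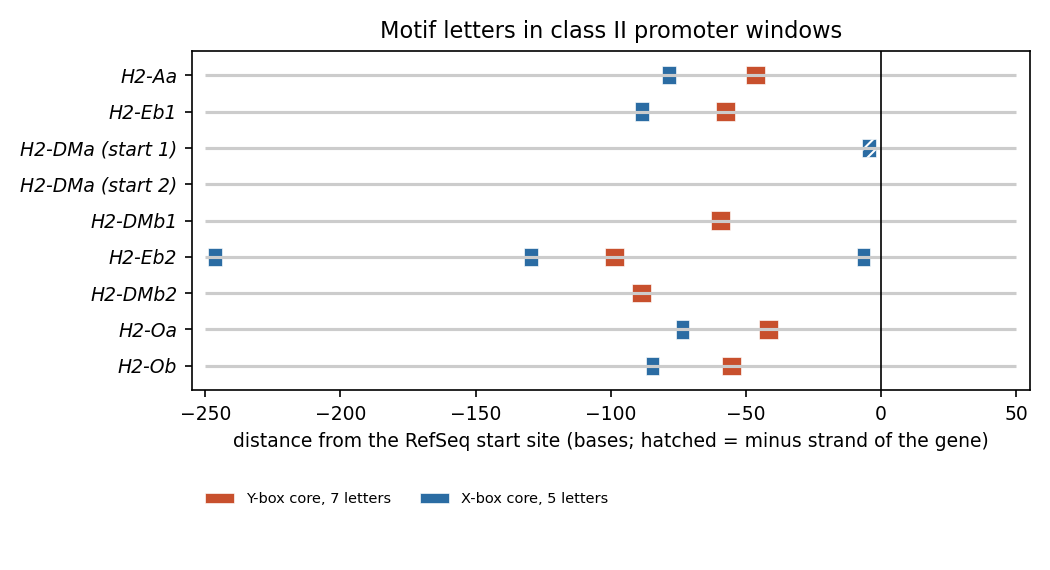
Positions of TGATTGG and GCAAC in the RefSeq promoter windows of 8 class II genes, as distance in bases from the start site. The legend calls these words Y-box and X-box cores. Every match is drawn, and GCAAC was in 35.2% of all windows, so a match alone does not mark an X box. H2-Aa, H2-Eb1, H2-Eb2, H2-Oa and H2-Ob hold GCAAC 23 to 26 bases before TGATTGG.

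Cd74 encodes the invariant chain, the chaperone of new class II pairs. The gene lies on chromosome 18 of GRCm38 from 60803848 to 60812652. It stood at 66.0 FPKM in WT and 134 in KO, 2.03-fold higher (interval 1.92 to 2.13), from about 1751 and 10733 reads. Of all genes compared, 5.71% had a ratio as high, and of the 2122 genes with a mean of 30 FPKM or more, 72 did, which is 3.39%. Cd74 was thus the member with the greatest difference between the libraries, although 5.99% of the compared genes exceeded WT by 2-fold or more and 2.79% fell short of it by as much.

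Both Cd74 rows showed this difference to the same extent. The first went from 38.2 FPKM in WT to 77.1 FPKM in KO, 2.02-fold, and the second from 27.8 to 56.5 FPKM, 2.03-fold. The mouse gene makes a short and a long form of the invariant chain by alternative splicing. Both rows span the same 8804 bp and share reads, so they are not independent, and the balance of the forms cannot be read from them. Relative to the 3 chains together, Cd74 stood at 0.323 in WT and 0.587 in KO, which is 1.82 times the WT value. This ratio is taken within each library and does not depend on how the libraries were scaled to each other. It can still carry effects of GC content and length. With these corrected for, log2 ratios were 0.95 for Cd74, 0.34 for H2-Aa, 0.037 for H2-Ab1 and 0.39 for H2-Eb1. In WT, H2-Aa and H2-Ab1 each exceeded Cd74, and in KO Cd74 exceeded both.

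**Figure D3:**
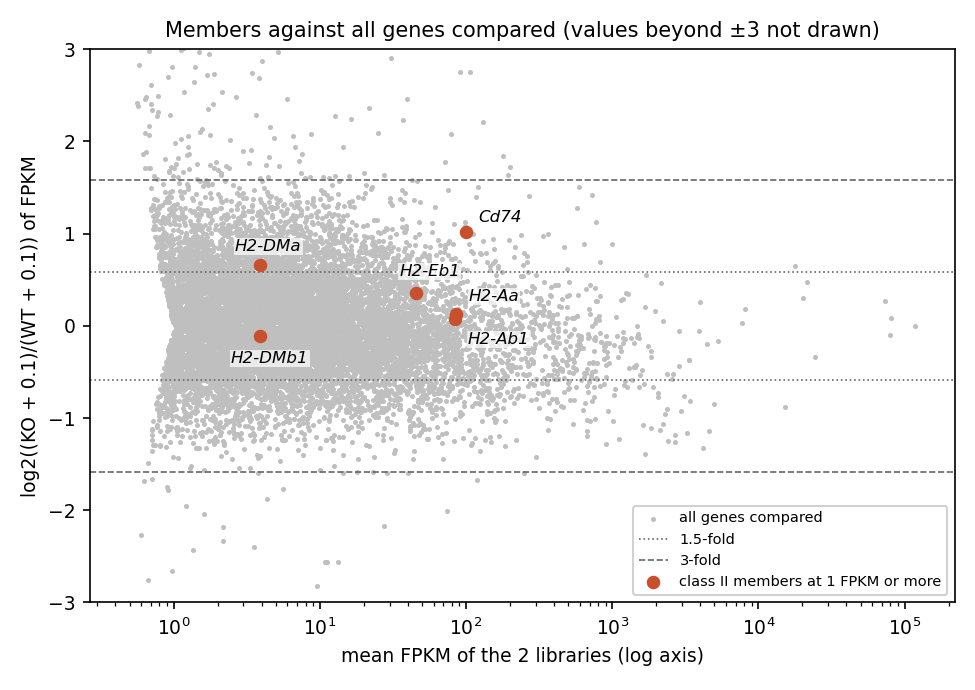
log2((KO + 0.1)/(WT + 0.1)) of FPKM against the mean FPKM of the libraries (log axis) for all 12171 genes compared (grey) and the 6 members at 1 FPKM or more (red). Dotted and dashed lines mark 1.5-fold and 3-fold. Cd74 and H2-DMa lie above the upper 1.5-fold line and the other 4 members between the 1.5-fold lines.

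H2-DMa and H2-DMb1 encode the chains of H2-DM, which removes the invariant chain fragment from the groove and edits the peptides bound there. H2-DMa, on chromosome 17 from 34119541 to 34139101, had 3.00 FPKM in WT and 4.78 in KO, 1.59-fold higher (interval 1.23 to 2.08), from about 71 and 341 reads. H2-DMb1, from 34153072 to 34160230 on that chromosome, stood at 4.06 FPKM in WT and 3.76 in KO, a ratio of 0.926 (interval 0.752 to 1.14). The chains of this heterodimer had ratios on opposite sides of 1, and the H2-DMa to H2-DMb1 ratio was 0.739 in WT and 1.27 in KO. With GC content and length corrected for, H2-DMa had a log2 ratio of 0.53, below the 1.5-fold line.

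The rows of the DM genes need care. H2-DMa has a row of 16252 bp, at 1.54 and 2.29 FPKM, and a row of 3354 bp that begins 12350 bp further on, at 1.46 and 2.50 FPKM. H2-DMb1 has a row of 14814 bp that spans both DM beta genes, at 2.15 and 1.98 FPKM, and a row of its own at 1.91 and 1.78 FPKM. H2-DMb2, the neighbouring and closely similar DM beta gene, stood at 1.80 FPKM in WT and 2.21 in KO, of which 0.680 and 0.864 FPKM were on a row that spans both. Reads of H2-DMb1 and H2-DMb2 can be split between them by the counting, so the level of either is uncertain. Without the spanning rows, an alternative chosen after seeing the data, the log2 ratio was −0.097 for H2-DMb1 and 0.25 for H2-DMb2.

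The A chains exceeded the DM chains by far in either library. H2-Aa and H2-Ab1 together stood at 23.3 times the summed level of H2-DMa and H2-DMb1 in WT and at 20.7 times in KO. All 7 members together summed to 277 FPKM in WT and 370 in KO, 1.33-fold, and the 6 without Cd74 to 211 and 236 FPKM, 1.12-fold. Most of the difference in the sum was therefore that of Cd74. Cd74 made up 23.8% of the summed FPKM in WT and 36.1% in KO. H2-Aa went from 29.5% to 24.2% and H2-Ab1 from 29.7% to 23.5% of the sum, while the share of H2-Eb1 was 14.4% in WT and 13.8% in KO.

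Ciita encodes the master regulator of class II genes. It lies on chromosome 16 from 10480059 to 10528418 and stood at 0.210 FPKM in WT and 0.304 in KO, about 8 and 34 reads. The ratio was 1.44, with an interval of 0.638 to 3.51 that reaches from lower to more than 3-fold higher. On these estimated reads a difference was not detectable. They were estimated on a coding transcript of 1620 bases, while the longest has 6007, so they are a low estimate and the interval is wide. The 3 chains stood at 970 times the level of Ciita in WT and 749 times in KO.

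Ciita is transcribed from several promoters, which in the mouse serve dendritic and other myeloid cells (form I), B cells (form III) and cells exposed to interferon gamma (form IV). In the table, 3 Ciita rows begin at the first start, at 0.0383 to 0.0418 FPKM in WT and 0.0547 to 0.0596 FPKM in KO. A row that begins 8207 bp further on stood at 0.0436 FPKM in WT and 0.0642 in KO, and one that begins 9709 bp on stood at 0.0448 and 0.0658 FPKM. All 5 rows had nearly the same value, each resting on few reads in WT, and the use of the promoters cannot be read from them. A row listed as C2ta, an older name of the gene, stood at 0.0136 and 0.0260 FPKM, and a short row listed as AK163054, of 2455 bp at the last start, was at 0 in WT and 0.0358 FPKM in KO. With these rows added, an alternative chosen after seeing the data, the log2 ratio of Ciita was 0.52 in place of 0.38.

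The remaining class II genes were near or below the 1 FPKM line. H2-Oa and H2-Ob encode the chains of H2-O, which inhibits H2-DM in B cells and some dendritic cells. H2-Oa stood at 0.289 FPKM in WT and 0.342 in KO, and H2-Ob at 0.551 and 0.517 FPKM. H2-Eb2, a second E beta gene, stood at 0.0242 and 0.0400 FPKM. Among these genes only H2-DMb2 reached 1 FPKM, with a log2 ratio of 0.29.

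**Figure D4:**
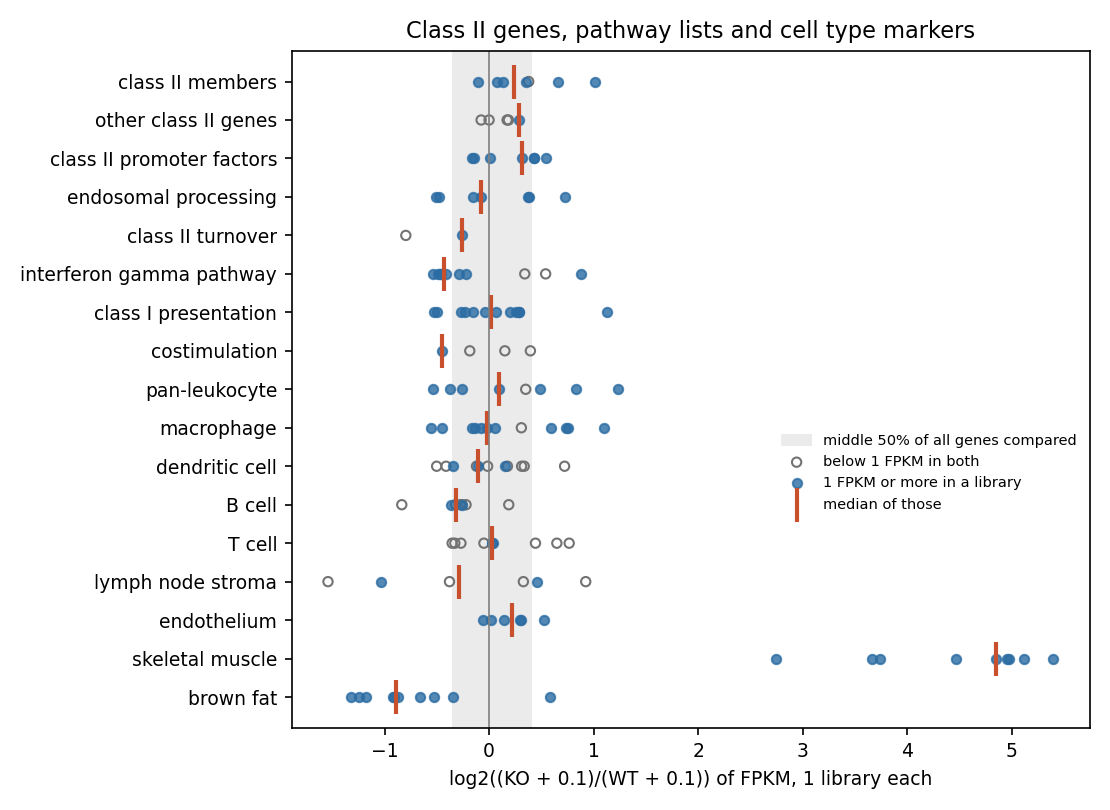
log2((KO + 0.1)/(WT + 0.1)) of FPKM for each gene of the class II members, 7 pathway lists and 9 marker lists. Filled points are genes at 1 FPKM or more in a library, open points are below it in both, red bars are medians of the filled points, and the grey band is the middle 50% of all genes compared. The skeletal muscle list stands apart on the right with a median of 4.85, and the brown fat list lies left of the band with a median of −0.89.

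The factors that bind class II promoters with CIITA were all measured at 1 FPKM or more. Of 7, 0 were at least 1.5-fold higher or lower, and their median log2 ratio was 0.31. Over all genes compared, 16.5% were at least 1.5-fold higher and 12.7% lower, and the list counts that follow stand beside these shares. Nfyc, a subunit of NF-Y, stood at 16.1 FPKM in WT and 21.6 in KO, and the RFX subunits Rfxank and Rfxap at 5.83 and 5.87 FPKM and at 3.44 and 5.07 FPKM. These factors were present in both libraries at levels far above that of Ciita. RFX and NF-Y also act at genes outside the class II pathway.

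The endosomal proteases and their helpers, which cut the invariant chain and make the peptides, had 7 of 7 genes at 1 FPKM or more. Of these, 1 was at least 1.5-fold higher and 0 lower, beside 16.5% and 12.7% of all genes compared. The higher one was Ctss, encoding cathepsin S, which cuts the invariant chain in dendritic cells and B cells. It stood at 5.77 FPKM in WT and 9.63 in KO and is named here after its value was seen. The more abundant cathepsins, made in most cells, stood at 779 and 547 FPKM for Ctsd, 226 and 215 FPKM for Ctsb and 46.4 and 60.7 FPKM for Ctsl. The median of the list was −0.073. Marchf8 and Marchf1 encode ubiquitin ligases that act on class II chains, and stood at 13.9 and 11.6 FPKM and at 0.252 and 0.103 FPKM.

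Interferon gamma signalling, the main inducer of Ciita outside professional presenting cells, had 8 of 10 genes at 1 FPKM or more with a median of −0.43. Of these, 1 was at least 1.5-fold higher, Irf2 at 3.55 and 6.60 FPKM, and 0 were lower, beside 16.5% and 12.7% of all genes compared. Ifngr1, a receptor chain, had 34.1 FPKM in WT and 24.5 in KO, and the transcription factor Irf1 had 23.3 and 19.1 FPKM. Ifng, the cytokine itself, had 0.0383 FPKM in WT and 0.101 in KO, about 1 and 8 reads, and is named after its value was seen.

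Class I presentation, which shows peptides of cytosolic proteins on all nucleated cells, was as a list near equality, with a median of 0.015 over 12 genes. Of the 12, 1 was at least 1.5-fold higher and 0 lower, beside 16.5% and 12.7% of all genes compared. B2m, the light chain of class I, stood at 406 FPKM in WT and 496 in KO. The heavy chains stood at 352 and 317 FPKM for H2-K1 and 173 and 168 FPKM for H2-D1. The higher gene was Tap2, a subunit of the peptide transporter, at 10.4 and 22.8 FPKM, and it was named after its value was seen. Tap2 lies in the class II region of the mouse MHC. Tap1, the other subunit of the transporter, went the other way, at 8.41 and 7.13 FPKM. Of the costimulation genes only Icosl reached 1 FPKM, at 1.10 and 0.784 FPKM, with Cd40 at 0.641 and 0.723 FPKM and Cd86 at 0.675 and 0.582 FPKM.

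Markers of the cells that can carry class II were read beside the members. Of the macrophage markers, 11 of 12 were at 1 FPKM or more, with a median of −0.019. Among the 11, 4 were at least 1.5-fold higher and 0 lower, beside 16.5% and 12.7% of all genes compared. The 4 were C1qc at 17.0 and 25.6 FPKM, Cd68 at 3.75 and 6.40 FPKM, Csf1r at 3.31 and 5.56 FPKM and Cd163 at 0.793 and 1.82 FPKM. The sum of all 12 was 198 FPKM in WT and 180 in KO, and without Lyz2, the highest, it was 96.5 and 106 FPKM. The 3 highest, Lyz2, C1qb and C1qa, stood at 102 and 74.3 FPKM, 31.6 and 31.2 FPKM and 28.7 and 26.1 FPKM. Of the dendritic cell markers 3 of 11 reached 1 FPKM, Zbtb46 at 3.37 and 3.11 FPKM, Irf4 at 1.73 and 1.93 FPKM and Irf8 at 1.55 and 1.20 FPKM. The sums over all 11 were nearly equal, 9.63 and 9.64 FPKM, with Zbtb46 as the largest part of both. Among the 11, 5 were higher in KO by any amount and 6 lower. B cell markers summed to 4.15 FPKM in WT and 3.17 in KO, with Cd79b at 1.28 and 1.05 FPKM, Cd79a at 1.06 and 0.803 FPKM and Blk at 0.517 and 0.409 FPKM. No marker of these 3 lists was at 0, and Ighm had no row.

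Other leukocyte markers were mixed. Of the pan-leukocyte genes, 7 of 8 were at 1 FPKM or more, 2 of them at least 1.5-fold higher (Laptm5 at 3.48 and 8.31 FPKM and Cd37 at 1.19 and 2.19 FPKM) and 0 lower. Over all genes compared, 16.5% were that much higher and 12.7% that much lower. Cd52 and Coro1a, with the highest levels, stood at 11.8 and 12.6 FPKM and at 10.2 and 7.01 FPKM. T cell markers summed to 4.94 FPKM in WT and 5.29 in KO, with Lck, Cd3g and Cd3d at 1.18 and 1.21 FPKM, 1.13 and 1.15 FPKM and 0.785 and 0.635 FPKM. The T cell genes Cd4, at 0.515 and 0.864 FPKM, and Cd3e, at 0.250 and 0.495 FPKM, were higher in KO but below 1 FPKM in both libraries. They are named after their values were seen, and Cd3e rests on about 8 reads in WT, with an interval of 0.950 to 4.95. Of the 9 T cell genes, 5 were higher in KO by any amount and 4 lower. The 4 were Cd3d, Cd8b1 at 0.573 and 0.427 FPKM, Cd8a at 0.277 and 0.201 FPKM and Cd28 at 0.112 and 0.105 FPKM. Lymph node stroma genes, a sign of a node in the dissected tissue, were low, with Ccl21a at 3.71 and 1.76 FPKM, Ccl19 at 1.23 and 1.72 FPKM, Cxcl13 at 0.442 and 0.928 FPKM and Cr2 at 0 and 0.0255 FPKM. The endothelial genes, with 0 of 6 past 1.5-fold, had Cdh5 at 29.1 and 36.1 FPKM, Pecam1 at 20.7 and 25.5 FPKM and Emcn at 22.3 and 21.4 FPKM.

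Marker genes of skeletal muscle and of brown fat differed strongly between the libraries. All 9 skeletal muscle genes were at least 3-fold higher in KO, beside 2.05% of all genes compared. Their sum was 93.1 FPKM in WT and 1620 in KO. Acta1 stood at 9.92 and 348 FPKM, Tnnt3 at 10.9 and 244 FPKM and Tnnc2 at 7.88 and 248 FPKM. Of 10 brown fat genes, 7 were at least 1.5-fold lower and 0 higher, beside 12.7% and 16.5% of all genes compared. The brown fat sum was 35534 FPKM in WT and 18128 in KO. Fabp4, Cox8b and Ucp1 stood at 19657 and 10713, 5937 and 2370, and 3720 and 1639 FPKM. Prdm16, a regulator of brown fat identity named after its value was seen, went the other way, 1.54-fold higher in KO (interval 1.35 to 1.76), and missed the higher count only through the pseudocount, with a log2 ratio of 0.58. FPKM are relative to all mapped reads of a library. When FPKM were rescaled to the sum without the highest genes, the log2 ratios of genes well above the pseudocount moved up by 0.11, Cd74 to 1.13 and H2-DMb1 to −0.0012, and that of Ciita went from 0.38 to 0.46. The part of the tissue make-up and of the macrophage genes in the class II values was not tested.

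The ratio also moved with base composition over all genes. Of 10372 genes matched to a GENCODE transcript, the 2593 with the lowest GC content had a median log2 ratio of −0.34 and the 2593 with the highest had 0.36. The members had 51.0% to 57.3% GC. With GC content and length corrected for, log2 ratios were 0.95 for Cd74, 0.53 for H2-DMa, 0.39 for H2-Eb1, 0.34 for H2-Aa, 0.037 for H2-Ab1, −0.066 for H2-DMb1 and 0.013 for Ciita. Cd74 remained above 1.5-fold with the correction and Ciita came to lie near equality. The part of base composition in the members' ratios was not tested beyond this correction.

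**Figure D5:**
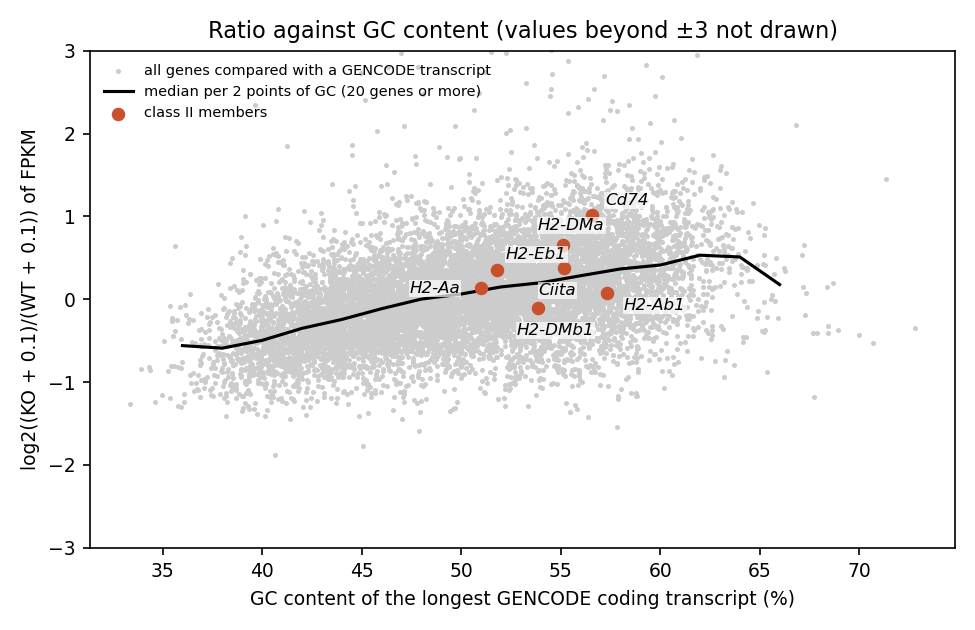
log2((KO + 0.1)/(WT + 0.1)) of FPKM against the GC content of the longest GENCODE coding transcript, for the 10372 genes matched (grey), with their median per bin of GC content (line) and the 7 members (red). The line climbs over most of the range and turns down at the highest GC content, and Cd74 at 56.6% GC stands above it while H2-Ab1 at 57.3% GC stands below it.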

How the data were processed

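The authors mapped 50 bp reads of 1 pooled library per genotype with TopHat 1.4.0 and deposited FPKM from cufflinks 1.3.0, run with 1 iteration of its likelihood step, as 55350 rows, 1 for each UCSC transcript. Bowtie and mm10 are named in the submitters' processing notes, but positions in the table were of another build, so positions given are those of GENCODE M21. Spreadsheet software had turned the names in 79 rows into dates, from which Marchf1 and Marchf8 were recovered.

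FPKM were summed per gene name in Python 3.11.15 with pandas 2.3.3, statsmodels 0.14.6, scipy 1.17.1, numpy 2.4.6 and matplotlib 3.10.9. With 1 library per genotype no test was run, and counts past 1.5-fold and 3-fold (the threshold of the study) and medians are given. The pseudocount was 0.1 FPKM, which understates the change of low genes.

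Depth was estimated from whole-read steps of 336 genes with 1 row and 1 exon, assuming fragments of 200 bp with an SD of 80 bp. Values under 15 reads came within 0.05 of a whole number for 88.5% of 87 values in WT and for 81.8% of 55 values in KO. The KO depth is above the read number in the labels. Reads per gene use the shortest coding GENCODE transcript, which gives a low estimate and a wide interval. The procedure was tested on simulated data.

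The members and lists were chosen with earlier results of these data known. Named were all class II genes, the 3 highest genes by mean FPKM of every other list, genes listed at 0, and the 5 genes nearest the members in ratio. One gene that this rule names is not reported here. Genes past 1.5-fold that are named beside a count of a list were added after their values were seen. Alternatives changed the fold, the rows, the scaling, the filter or the pseudocount, or corrected for GC content and length. The study's other assays were not analysed here.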

Additional observations from a re-analysis of the deposited data

How the results depend on the processing

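No paired analysis was possible because each genotype has 1 library, and for the same reason no replicate could be left out. Over the alternatives run, Cd74 had log2 ratios of 0.95 to 1.13 and stayed above 1.5-fold, H2-DMa had 0.53 to 0.76 and was past 1.5-fold in 7 of 9, and each member kept its sign. Of 273 alternative values, 27 were labelled as moved and 246 as the same. Among the changes of sign that follow, only that of the lymph node stroma median belongs to the 27. List medians changed sign in some cases: rescaling took lymph node stroma from −0.29 to 0.56, dendritic cells from −0.11 to 0.086, macrophages from −0.019 to 0.091 and endosomal processing from −0.073 to 0.036, a minimum of 10 FPKM took pan-leukocyte genes from 0.092 to −0.22, no filter took macrophages to 0.020, and the GC correction took class I from 0.015 to −0.021. Rescaling without the highest genes moved H2-Aa to 0.24, H2-Ab1 to 0.19, H2-Eb1 to 0.46 and Cd74 to 1.13, and with it Cxcl13 newly passed 1 FPKM in the lymph node stroma list. The highest row of each gene moved the median of that list to −0.96, and the correction for GC content and length moved H2-Aa to 0.34. The members at least 1.5-fold higher numbered 1 in place of 2 with a pseudocount of 1 FPKM, a minimum of 10 FPKM or the correction. Of all genes, 250 were at least 3-fold higher, and 144 were with a pseudocount of 1 FPKM, 103 with a minimum of 10 FPKM, 144 after correction and 729 at 2-fold. At least 3-fold lower were 49, and 28 with a pseudocount of 1 FPKM, 93 without a filter, 30 with a minimum of 10 FPKM, 21 without rows under 200 bp, 1 after correction and 339 at 2-fold. At least 1.5-fold higher were 2014, and 3224 without a filter, 656 with a minimum of 10 FPKM and 1188 after correction. At least 1.5-fold lower were 1541, and 2384, 718 and 702 under the same alternatives. Fewer or more genes entered under the filters and the correction. Among the 7 members, Ciita had the fewest estimated reads, about 8 in WT by the low estimate.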

Other observations

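Members aside, 4746 genes reached 10 FPKM in either library with every row spanning 200 bp or more. Of these, 527 had a log2 ratio within 0.1 of 0.24, the median of the members other than Ciita, although no member itself lay that close to it. The nearest were an unnamed transcript, uc012aub.1, at 68.5 FPKM in WT and 81.1 in KO, Ubtf, encoding a factor of ribosomal RNA transcription, at 17.8 and 21.0 FPKM, Rars, encoding the arginyl-tRNA synthetase, at 8.62 and 10.2 FPKM, Rbbp7, encoding a histone chaperone, at 27.7 and 32.8 FPKM, and Pgam5, encoding a mitochondrial phosphatase, at 11.5 and 13.6 FPKM. The likeness is over only 2 libraries. By level, Cd74 was at rank 1110 among all gene names in WT and at rank 599 in KO.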
